A study of Mus musculus with 6 samples.

Results

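The proteases and inhibitors described here are the mouse genes whose symbols begin with Mmp, Adam or Adamts followed by a digit, together with Timp1 to Timp4. The deposited count table holds 79 such genes among 24516: 23 matrix metalloproteinases (MMPs), 33 ADAMs, 19 ADAMTSs and 4 tissue inhibitors of metalloproteinases (TIMPs). Membership follows from the symbol alone. A filter on low counts was passed by 40 of the 79, namely 12 MMPs, 15 ADAMs, 10 ADAMTSs and 3 TIMPs.

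Gene expression was measured by sequencing of polyadenylated RNA in iMGT-Myh6-eGFP-MEF cells. These are mouse embryonic fibroblasts that turn on Mef2c, Gata4 and Tbx5, the 3 cardiac reprogramming factors, when doxycycline is added, and that carry an eGFP reporter named for the cardiac myosin gene Myh6. Cells were plated at 300000 per well and transfected with an siRNA against H1f0, the gene of linker histone H1.0 (siH1f0), an siRNA against Junb, which encodes an AP-1 subunit (siJunb), or a control siRNA (siControl). On the next day all 3 groups received doxycycline at 1 ug/mL, so the siControl cells were also being reprogrammed, and no group without the 3 factors was used here. Each group held 2 libraries labelled as biological replicates of this 1 line, and p-values measure only the spread between them. The sample labels give harvest at day 1 of induction, whereas the series text speaks of GFP-positive cells sorted at day 3, and the files do not settle which holds.

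MMPs are zinc endopeptidases that cut collagens, gelatins and other matrix proteins, either after secretion or, for the membrane types, at the cell surface. ADAMs are membrane proteins, many of which release growth factors and receptor ectodomains from the cell surface, whereas the secreted ADAMTS enzymes cut proteoglycans, procollagens and microfibril proteins. TIMPs bind and block the active sites of many of these enzymes, and the balance of active enzymes and TIMPs helps to set how fast a fibroblast turns over its matrix. Interstitial collagenase and stromelysin promoters are classic AP-1 targets in fibroblasts, through the heptamer TGAGTCA.

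Because one knockdown targeted an AP-1 subunit, promoters were searched for TGAGTCA or its reverse complement TGACTCA on both strands. RefSeq windows of 300 bases (250 before and 50 after an annotated start, build GRCm38.p6) were found for 49 of the 79 genes, and 10 of the 49 (20.4%) held a heptamer. The share was 5.95% over all 27025 genes with a window and, among genes that passed the count filter, 12% (3 of 25) over the protease and inhibitor genes and 4.62% (472 of 10214) over all. A run of 10 MMP genes lies on chromosome 9 between 7272514 and 7699585, and 7 of these 10 held the heptamer, against 3 of the other 39 genes with a window. A match describes letters in a window and not a binding site. The 150 bases before the start of 4 genes of the chromosome 9 run and of Adam19 are shown, since they carry the heptamer (in capitals) within genes that differ widely in their reads. All lie on the plus strand: Mmp13, a collagenase, at chr9:7272364-7272513, Mmp3, stromelysin-1, at chr9:7445672-7445821, Mmp10, stromelysin-2, at chr9:7502192-7502341, Mmp1a, an interstitial collagenase, at chr9:7463991-7464140, and a start of Adam19 downstream of its first annotated one at chr11:46055834-46055983.
Mmp13: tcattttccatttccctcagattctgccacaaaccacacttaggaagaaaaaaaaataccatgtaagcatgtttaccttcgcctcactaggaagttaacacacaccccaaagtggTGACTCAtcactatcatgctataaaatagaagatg
Mmp3: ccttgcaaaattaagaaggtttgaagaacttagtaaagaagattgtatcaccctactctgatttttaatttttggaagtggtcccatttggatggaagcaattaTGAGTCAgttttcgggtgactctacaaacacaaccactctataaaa
Mmp10: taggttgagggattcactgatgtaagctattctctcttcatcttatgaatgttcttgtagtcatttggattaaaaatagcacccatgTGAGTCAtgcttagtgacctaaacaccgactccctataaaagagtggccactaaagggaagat
Mmp1a: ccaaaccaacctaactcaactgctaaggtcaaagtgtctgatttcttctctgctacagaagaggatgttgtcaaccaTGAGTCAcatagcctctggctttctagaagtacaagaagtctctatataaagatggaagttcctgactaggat
Adam19: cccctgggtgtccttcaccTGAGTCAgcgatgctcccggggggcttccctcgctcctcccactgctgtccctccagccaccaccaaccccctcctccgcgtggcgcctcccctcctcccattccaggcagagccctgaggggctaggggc

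Counting the base before the start as -1, the first base of the heptamer lay at -35 in Mmp13, -46 in Mmp3, -63 in Mmp10, -73 in Mmp1a and -131 in Adam19. Mmp12 held it at -44, Mmp7 at -63 and Mmp1b at -93, whereas the windows of Mmp8, Mmp20 and Mmp27 held none. The 10 genes of the run together took 351 counts over the 6 libraries. Mmp3 had 147 of them, Mmp13 had 137 and Mmp27, a gene with no heptamer in its window, had 60. Mmp1a, Mmp1b, Mmp7, Mmp10 and Mmp12 had 0 counts in every library, and a count of 0 allows up to 3 counts per library, for counting error only. Genes with and without reads therefore both held the heptamer.

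**Figure D1:**
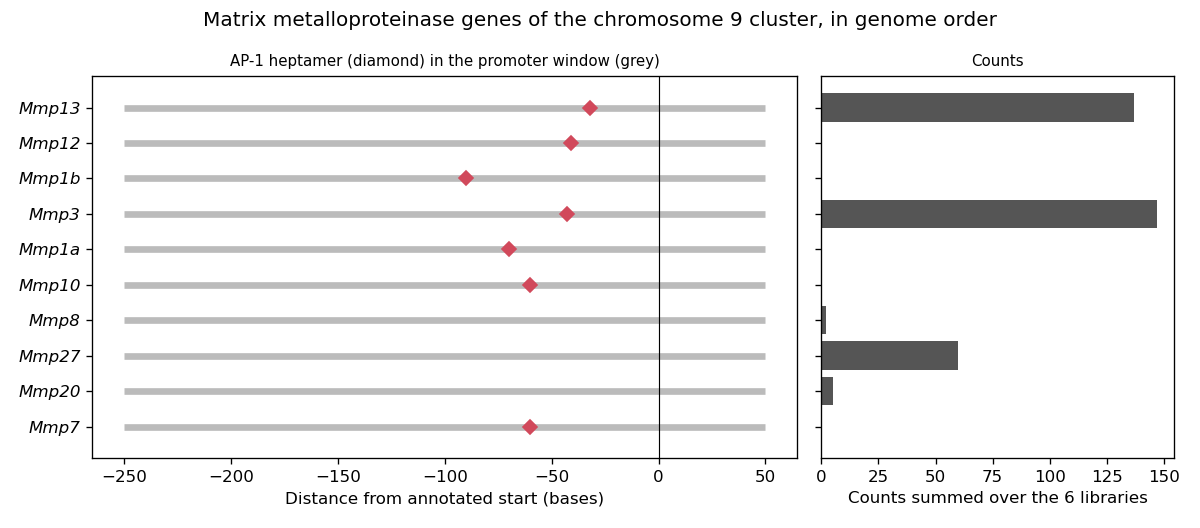
MMP genes of the chromosome 9 run in genome order. Left, distance from the annotated start in bases, with the searched window in grey and the centre of each AP-1 heptamer as a diamond; right, counts summed over the 6 libraries. The heptamer is present in 7 of the 10 windows, and 5 of those 7 genes have 0 counts.

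Total counts were 59380780 and 65746378 for siH1f0, 63888652 and 48690447 for siJunb, and 85979630 and 65998575 for siControl, of which 0.436% to 0.484% fell on the 79 genes. The Junb siRNA left 10.7 and 8.9 CPM of Junb (counts scaled to library size with TMM factors), against 39.1 and 35.7 CPM in siControl libraries, and the H1f0 siRNA left 51.6 and 54.4 CPM of H1f0, against 798 and 743 CPM. Each target was also lower in both libraries of the other knockdown than in either siControl library. H1f0 had 666 and 651 CPM in siJunb libraries (log2 fold change -0.23, edgeR adjusted p = 0.021). That call was lost in a fit of the 4 libraries compared (adjusted p = 0.0616). Junb averaged 30.6 CPM in siH1f0 libraries (log2 fold change -0.29). It was not called by edgeR (adjusted p = 0.0778) but was by DESeq2 (adjusted p = 0.0427). Fibroblast markers were present at a high level for Fn1, Vim, Col1a1 and Col1a2, but Col3a1 averaged 1.38 CPM, Postn 0.462 CPM and Thy1 had 1 count over the 6 libraries together. Cardiac Tnnt2 averaged 102 CPM, whereas Actn2 and Ryr2 had 11 and 7 counts in total. Of 10 macrophage and leukocyte markers 5 passed the count filter, with Cd14 at 8.62 to 13.1 CPM, Lyz2 averaging 1.48 CPM and Cd68 1.11 CPM, while Ptprc, Tyrobp and Cd3e were at 0 in every library. None of 7 epithelial and 1 of 8 endothelial markers passed the count filter. By chi-square per degree of freedom, which weighs abundant genes most, the 2 siControl libraries differed more (74.6) than those of siH1f0 (3.85) and siJunb (3.80). The SD over genes of the log2 ratio of the pair was 0.312 for siControl, 0.317 for siJunb and 0.284 for siH1f0. The ribosomal Rn45s, an abundant gene that enters the chi-square above, took 1.90% of counts in siControl replicate 1, against 0.308% to 0.655% in the other 5 libraries. The 2 differences are therefore not separate. The part of these differences in the results was not tested.

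TIMPs and a few membrane enzymes made up most of the signal. In TPM, which divides by gene length and so allows genes to be compared, Timp3 averaged 692, Timp2 659, Mmp14 337, Adam10 254, Adam9 226, Timp1 182, Mmp11 151, Adam15 146, Adam17 112, Mmp15 84.6, Mmp2 74.5 and Adam19 49.6 over the 6 libraries. Timp3, which binds the matrix and blocks ADAMs as well as MMPs, and Timp2, which also takes part in activation of the Mmp2 proenzyme, held 88.1% of the TIMP level together. Mmp14, the membrane-type enzyme that cuts fibrillar collagen and activates pro-Mmp2, held 49.3% of the MMP level. Adam10 and Adam17, the main sheddases of Notch receptors and of TNF and EGF-family ligands, held 92.6% of the ADAM level together with Adam9 and Adam15. Levels in the ADAMTS family were lower: Adamts1, a versican-cutting enzyme, led at 40.8 TPM, followed by Adamts10 at 23.1 TPM, Adamts5 at 18.6 TPM, Adamts7 at 16.0 TPM and Adamts6 at 15.8 TPM. In bulk RNA, a gene used by few cells and a gene with little RNA per cell cannot be told apart.

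**Figure D2:**
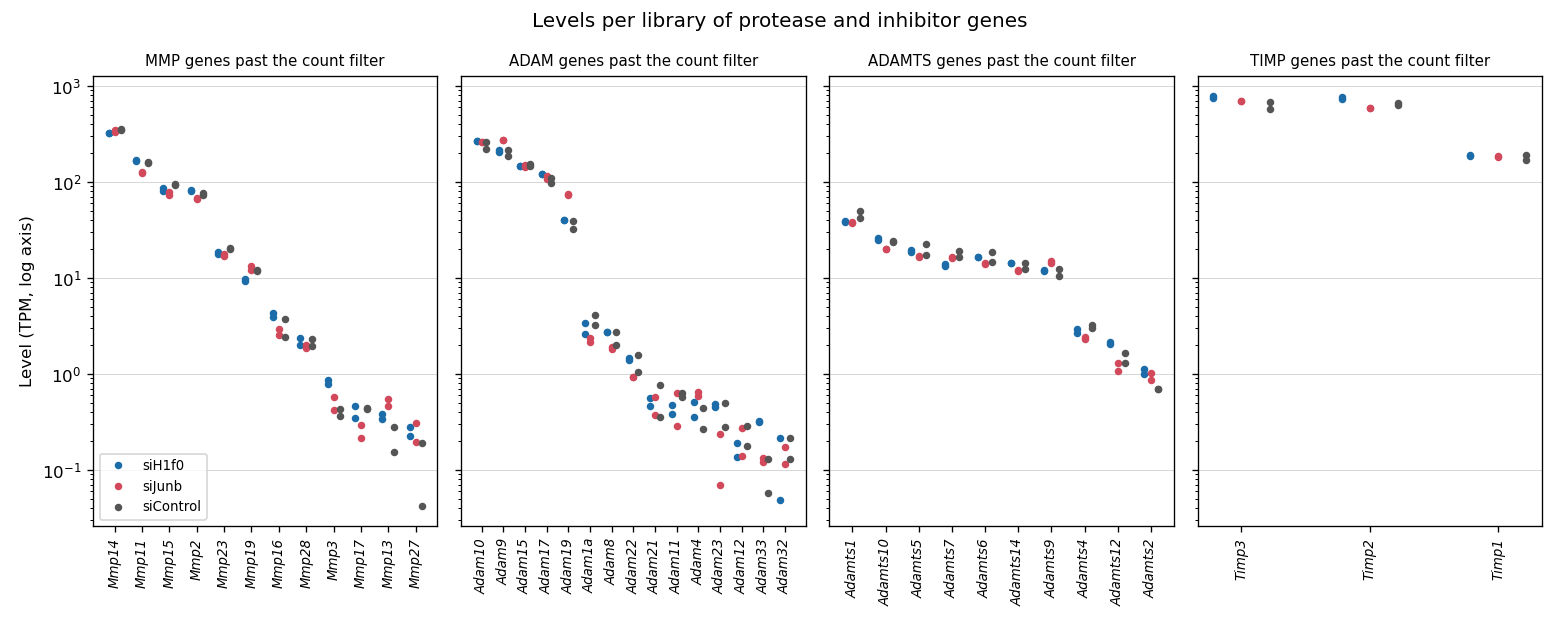
Level in TPM (log axis) of each gene past the count filter in each library, by family, with siH1f0 in blue, siJunb in red and siControl in grey. Timp3, Timp2 and Mmp14 lie above 300 TPM in every library, and Adam19 is set apart by its siJunb libraries.

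Of the 39 genes that did not pass the count filter, 23 had 0 counts in every library and no other had more than 12 counts in any 1 library. The genes at 0 were 15 ADAMs, 5 MMPs, Adamts16, Adamts19 and Timp4. Many of the silent ADAMs are known from the testis, and several of the silent ADAMs lie in groups on chromosome 8. Others lie elsewhere, such as Adam2, Adam7 and Adam28 on chromosome 14. In the chromosome 8 groups, Adam24, Adam20 and Adam39 between 40675077 and 40826861, and Adam26a, Adam26b and Adam34 between 43519864 and 43665560, were at 0. Adam25, in the first of these groups, had 2 counts. In another such group, between 24602246 and 25017040 on chromosome 8, Adam9 took 131037 counts over the 6 libraries, whereas Adam18 and Adam3 were at 0, Adam5 had 5 counts and Adam32 had 54. Mmp9, gelatinase B, had at most 2 counts in any library, and Mmp2 carried nearly all gelatinase reads.

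Summed over each family, the level of TIMPs was highest in siH1f0 libraries and that of ADAMs in siJunb libraries. TIMPs summed to 1713 and 1656 TPM in siH1f0 libraries, 1458 and 1467 TPM in siJunb libraries and 1397 and 1510.2 TPM in siControl libraries. ADAMs summed to 793 and 785 TPM in siH1f0 libraries, 868 and 861 TPM in siJunb libraries and 695 and 773 TPM in siControl libraries. Neither high group overlapped the other groups. With 2 libraries in each group this is common: between 2 groups, 50.6% to 71.7% of all genes tested did not overlap. MMPs summed to 698 and 684 TPM in siH1f0 libraries, 654 and 636 TPM in siJunb libraries and 703 and 725 TPM in siControl libraries, with the siJunb libraries lowest. ADAMTSs summed to 148 and 144 TPM in siH1f0 libraries, 136 and 136 TPM in siJunb libraries and 143 and 166 TPM in siControl libraries, and the siControl libraries spanned the siH1f0 pair. The ratio of the MMP total to the TIMP total, which does not depend on scaling between libraries, was 0.407 and 0.413 in siH1f0 libraries, 0.449 and 0.433 in siJunb libraries and 0.503 and 0.48 in siControl libraries, with no overlap between any of the groups. Mmp14 per Timp2, the pair that acts on pro-Mmp2, stood at 0.429 and 0.439 in siH1f0 libraries, 0.591 and 0.568 in siJunb libraries and 0.546 and 0.527 in siControl libraries. These sums and ratios are of RNA, and protein and enzyme activity were not measured. They were not tested, since with 2 libraries in each group the smallest p of an exact two-sided permutation test is 0.33.

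**Figure D3:**
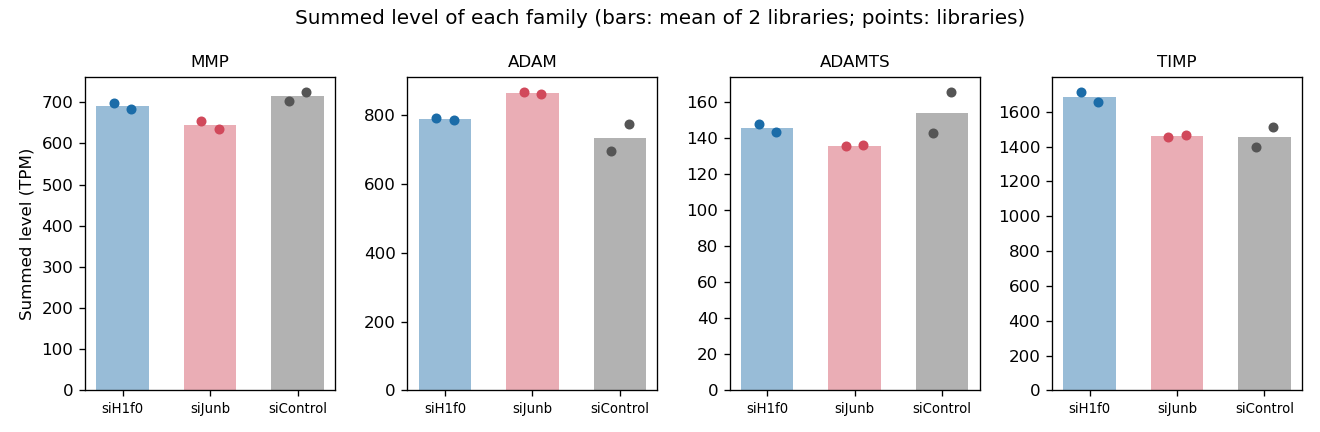
Summed level in TPM of each family (bars, mean of 2 libraries; points, single libraries) in siH1f0, siJunb and siControl. The siH1f0 libraries stand highest for TIMPs and the siJunb libraries highest for ADAMs.

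Which of these genes differ when the AP-1 subunit is reduced was read from siJunb against siControl. Of the 40 measured genes, 3 rose and 6 fell at an adjusted p under 0.05 in edgeR's quasi-likelihood test (Benjamini-Hochberg over 13427 genes). The membrane sheddases Adam19 and Adam9 and the proteoglycan-cutting Adamts9 rose, with Adam19 showing the widest change of the 9. Mmp11, Mmp15, Adamts1, Adamts4, Adamts10 and Adam1a fell, each by less than 0.7 on the log2 scale. Among all genes tested 16.5% were called, 8.63% higher and 7.82% lower, so a share of 22.5% is near the background. With total counts in place of TMM scaling the split over all genes was 884 higher and 1369 lower, against 1159 higher and 1050 lower with TMM. The median log2 fold change was -0.12 over the 40 genes, against 0.0024 over all genes. Groups did not overlap in 27 of the 40, against 58% of all genes.

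Adam19, a sheddase of neuregulin that mice need for the endocardial cushions of the heart (chromosome 11, 46054502 to 46147347), stood at 192 and 187 CPM in siJunb libraries, against 82.9 and 96.2 CPM in siControl libraries. Both siJunb libraries lay far above both siControl libraries, and 8.25% of its exonic bases overlap Gm16033 on the opposite strand. The log2 fold change was 1.08 ± 0.069 (SE, adjusted p = 9.28e-05). Adam9, a broadly expressed relative of Adam19 (chromosome 8, 24949611 to 25017040), had 418 and 419 CPM in siJunb libraries, against 283 and 319 CPM in siControl libraries, again with no overlap, and a log2 fold change of 0.48 ± 0.059 (SE, adjusted p = 0.00181). Both calls held without each of the 6 libraries in turn (edgeR adjusted p at most 0.0040 for Adam19 and 0.0372 for Adam9) and under all 8 other settings. Adamts9, which cuts aggrecan and versican (chromosome 6, 92772699 to 92944450), had 33.4 and 34.8 CPM in siJunb libraries, against 24.1 and 27.7 CPM in siControl libraries, and a log2 fold change of 0.40 ± 0.075 (SE, adjusted p = 0.00993). Its call was lost without siJunb replicate 1 (adjusted p = 0.0736) and without siJunb replicate 2 (adjusted p = 0.106).

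Among the metalloproteinases, Mmp11, stromelysin-3, which furin activates inside the cell (chromosome 10, 75923221 to 75932502), had 109 and 112 CPM in siJunb libraries, against 136 and 136 CPM in siControl libraries. The siJunb pair lay below the siControl pair, with a log2 fold change of -0.30 ± 0.046 (SE, adjusted p = 0.00465). Mmp15, a membrane-type enzyme (chromosome 8, 95352296 to 95374293), had 131 and 122 CPM in siJunb libraries, against 153 and 153 CPM in siControl libraries, with a log2 fold change of -0.28 ± 0.054 (SE, adjusted p = 0.011). Both calls were lost without either siJunb library, at adjusted p = 0.0914 and 0.0674 for Mmp11 and 0.0657 and 0.152 for Mmp15.

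Within the ADAMTS family, Adamts1 (chromosome 16, 85793827 to 85803113) had 69.4 and 71.5 CPM in siJunb libraries, against 79.1 and 89.3 CPM in siControl libraries, and fell by 0.26 ± 0.065 (SE, log2; adjusted p = 0.0298). Adamts10, an enzyme of fibrillin microfibrils (chromosome 17, 33523646 to 33553782), had 33.4 and 33.2 CPM in siJunb libraries, against 40.1 and 38.4 CPM in siControl libraries, and fell by 0.24 ± 0.056 (SE, log2; adjusted p = 0.0238). Both siJunb libraries were below both siControl libraries for each gene. Adamts4, an aggrecanase (chromosome 1, 171250129 to 171262267), had 5.85 and 5.61 CPM in siJunb libraries, against 7.75 and 7.08 CPM in siControl libraries, with a log2 fold change of -0.37 ± 0.11 (SE, adjusted p = 0.0446). Adam1a, known from mouse sperm (chromosome 5, 121518604 to 121521695), had 2.81 and 2.57 CPM in siJunb libraries, against 4.82 and 3.66 CPM in siControl libraries, with a log2 fold change of -0.66 ± 0.19 (SE, adjusted p = 0.0458), and 63.7% of its annotated exonic bases are shared with Gm42878 on the same strand, so its reads cannot be assigned with certainty. These 4 calls were close to the threshold: without siJunb replicate 1 the adjusted p was 0.213, 0.167, 0.181 and 0.178 for Adamts1, Adamts10, Adamts4 and Adam1a in that order, and without siJunb replicate 2 it was 0.16, 0.178, 0.235 and 0.236. All 4 were also lost without siH1f0 replicate 1 (0.0717, 0.0684, 0.0859 and 0.0594) and without siH1f0 replicate 2 (0.0701, 0.0674, 0.0833 and 0.0592). These siH1f0 libraries enter the comparison through the shared spread, filter and scaling. Adamts4 and Adam1a were lost without siControl replicate 1 as well (0.0702 and 0.0714), where the log2 fold change of Adam1a was -0.44. In limma-voom, Adamts4 and Adam1a had adjusted p = 0.0515 and 0.0658, and in a fit of the 4 libraries compared Adamts1, Adamts10, Adamts4 and Adam1a had 0.0708, 0.0674, 0.087 and 0.0628.

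The number of protease and inhibitor genes called for siJunb against siControl was 2 without either siJunb library, 5 without either siH1f0 library, 21 without siControl replicate 1 and 15 without siControl replicate 2. The calls over all genes moved with them: 2.69% and 2.56% without siJunb replicates 1 and 2, 8.01% and 8.12% without siH1f0 replicates 1 and 2, and 33.6% and 40.2% without siControl replicates 1 and 2. Cardiomyocyte markers moved in the same comparison: 3 of 7 measured fell and 0 rose, beside 16.5% of all genes called in either direction. The list of 10 summed to 121 and 122 CPM in siJunb libraries, against 162 and 143 CPM in siControl libraries. Of markers of other cell types, 1 of 9 measured fibroblast markers (Pdgfra), 1 of 5 macrophage and leukocyte markers (Csf1r, at 0.591 and 0.691 CPM in siJunb libraries, against 0.253 and 0.228 CPM in siControl libraries) and 1 of 5 smooth muscle markers (Acta2, at 75.3 and 77.1 CPM in siJunb libraries, against 63.1 and 58.1 CPM in siControl libraries) rose, and 0 fell. Their part in the protease changes was not tested.

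**Figure D4:**
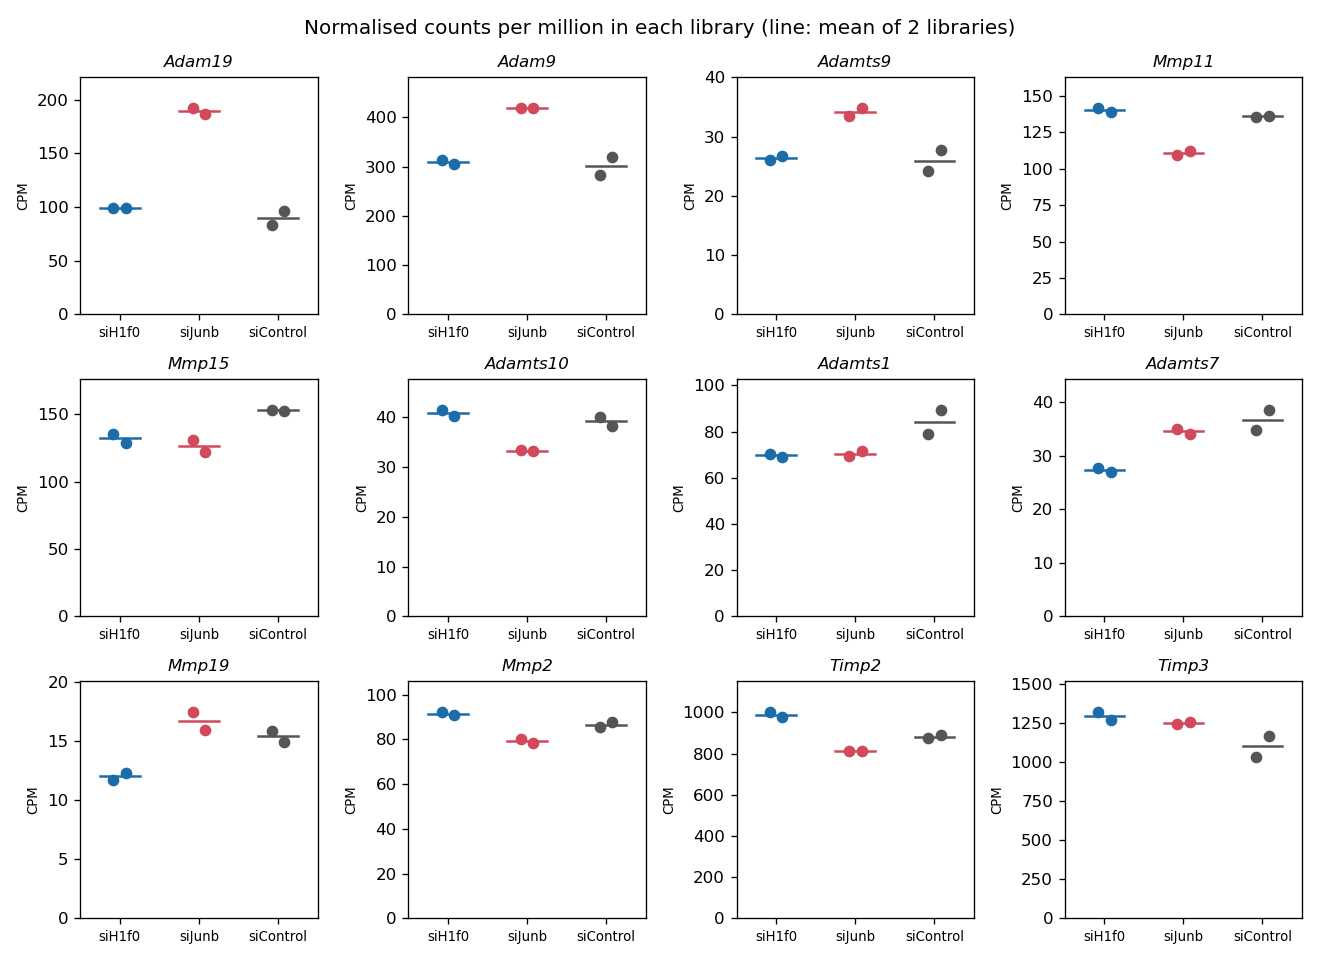
CPM in each library (points) and the mean of 2 libraries (lines) for 12 genes in siH1f0, siJunb and siControl, on axes that start at 0. Adam19 and Adam9 stand apart in siJunb, Mmp11 and Adamts10 are lowest in siJunb, and Adamts7 and Mmp19 are lowest in siH1f0.

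Which of these genes differ when the linker histone is reduced was read from siH1f0 against siControl. Of the 40 measured genes 0 rose and 3 fell: Adamts7, Mmp19 and Adamts1. With 0 genes called higher by edgeR, 13 of the 40 (32.5%) had an unadjusted p under 0.05 in either direction, against 22.8% of all genes. Of the 40, limma-voom called 2 higher and DESeq2 called 3 higher, beside 317 and 480 of all 13427 genes. By edgeR, 6.55% of all 13427 genes were called, 2.27% higher and 4.27% lower, and the share of 7.5% is near that background. The median log2 fold change was 0.043, against 0.0034 over all genes, and groups did not overlap in 24 of the 40, against 50.6% of all genes.

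Adamts7, which cuts cartilage oligomeric matrix protein (chromosome 9, 90162904 to 90200102), had 27.6 and 27.0 CPM in siH1f0 libraries, against 34.8 and 38.5 CPM in siControl libraries. Both siH1f0 libraries lay below both siControl libraries, and the log2 fold change was -0.42 ± 0.066 (SE, adjusted p = 0.00793). Mmp19, a secreted enzyme able to cut basement membrane proteins (chromosome 10, 128790910 to 128800827), had 11.7 and 12.3 CPM in siH1f0 libraries, against 15.9 and 15.0 CPM in siControl libraries, with a log2 fold change of -0.36 ± 0.08 (SE, adjusted p = 0.0355). Of its annotated exonic bases, 22.3% overlap Tmem198b on the opposite strand, and the strand setting of the counting is not given in the sources used here. Adamts1 had 70.4 and 69.0 CPM in siH1f0 libraries, against 79.1 and 89.3 CPM in siControl libraries, with a log2 fold change of -0.27 ± 0.065 (SE, adjusted p = 0.0432), and the siH1f0 libraries again did not reach the siControl pair. The same siControl libraries gave its fall in siJunb, so the falls are not separate evidence. None of the 3 calls held without siH1f0 replicate 1 (adjusted p = 0.0958, 0.302 and 0.263 for Adamts7, Mmp19 and Adamts1 in that order) or siH1f0 replicate 2 (0.113, 0.197 and 0.283). In a fit of the 4 libraries compared, Mmp19 and Adamts1 had adjusted p = 0.084 and 0.115. Mmp19 and Adamts1 were also lost without siJunb replicate 1 (0.0794 and 0.116) and siJunb replicate 2 (0.0789 and 0.115).

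Several abundant genes lay just outside the threshold. Timp3 (chromosome 10, 86300412 to 86349505) had 1320.2 and 1270.0 CPM in siH1f0 libraries, against 1034 and 1166 CPM in siControl libraries, with no overlap and a log2 fold change of 0.24 (95% interval 0.10 to 0.37, adjusted p = 0.0518). This log2 fold change was 0.15 without siControl replicate 1 and 0.32 without siControl replicate 2. Timp2 (chromosome 11, 118301061 to 118355411) had 1002 and 976 CPM in siH1f0 libraries, against 874 and 889 CPM in siControl libraries, also without overlap, at 0.17 (95% interval 0.07 to 0.26, adjusted p = 0.0519). Both inhibitors were higher in each siH1f0 library. Adam17 had 202 and 202 CPM in siH1f0 libraries, against 169.6 and 181 CPM in siControl libraries, at 0.20 (95% interval 0.081 to 0.33, adjusted p = 0.0594). Mmp15 had 135 and 129 CPM in siH1f0 libraries, against 153 and 153 CPM in siControl libraries, at -0.21 (95% interval -0.33 to -0.09, adjusted p = 0.0518). The sheddase was higher in both siH1f0 libraries and the membrane-type enzyme lower, all short of a call. DESeq2 called all 4, at adjusted p = 0.0139 for Timp3, 0.0205 for Timp2, 0.0246 for Adam17 and 0.0207 for Mmp15. None of the 4 was called by edgeR with RLE size factors, with a replicate block or in a fit of the 4 libraries compared. Over the 8 other settings the adjusted p reached 0.148 for Timp3, 0.176 for Timp2, 0.139 for Adam17 and 0.118 for Mmp15. In limma-voom, Adam17 and Mmp15 were not called, whereas Timp3 and Timp2 were (adjusted p = 0.0487 and 0.0446). With total counts in place of TMM scaling, Timp3, Timp2 and Adam17 were called higher (adjusted p = 0.0322, 0.0369 and 0.04 in that order), so that 3 genes were higher and 3 lower. Among all 13427 genes, 407 were then called higher and 532 lower. Exons of Timp3 overlap Syn3 on the opposite strand over 21.3% of their length.

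The number of protease and inhibitor genes called for siH1f0 against siControl was 0 without either siH1f0 library, 1 without either siJunb library, 12 without siControl replicate 1 and 18 without siControl replicate 2. Over all genes the calls were 0.843% and 0.94% without siH1f0 replicates 1 and 2, 2.44% and 2.46% without siJunb replicates 1 and 2, and 21% and 35.9% without siControl replicates 1 and 2. Beside these changes, Acta2, a smooth muscle and myofibroblast marker, rose in siH1f0 (109 and 112 CPM, against 63.1 and 58.1 CPM in siControl). It was 1 of 5 measured smooth muscle markers called, beside 6.55% of all genes. The list of 6, with Acta2 as its most abundant gene, summed to 153 and 155 CPM in siH1f0 libraries, against 108 and 102 CPM in siControl libraries. Smtn (35.6 and 33.8 CPM, against 36.3 and 36.4 CPM) and Des (3.62 and 3.43 CPM, against 4.46 and 3.93 CPM) were lower in siH1f0 libraries. Tagln was higher (4.15 and 4.80 CPM, against 3.48 and 3.16 CPM), while Myh11 averaged 0.177 CPM and Cnn1 0.0961 CPM. Of the other lists, 1 fibroblast marker (Col1a2) and 1 cardiomyocyte marker (Tnni3) also rose, and 0 of the 5 macrophage and leukocyte markers were called by edgeR. Their part in the protease changes was not tested.

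Set directly against each other, the 2 knockdowns differed in 13 of the 40 genes. Mmp11, Mmp2, Timp2, Adamts10, Adamts12, Adam22 and Adam23 were higher in siH1f0, and Adam19, Adam9, Adamts7, Adamts9, Mmp14 and Mmp19 were lower in siH1f0. Among all 13427 genes 25.9% were called, 12.2% higher and 13.8% lower, so the share of 32.5% is near the background. With total counts in place of TMM scaling the split over all genes was 2222 higher and 1340 lower, against 1637 higher and 1847 lower with TMM, and over the 40 genes it was 9 higher and 5 lower, against 7 higher and 6 lower with TMM. The median log2 fold change was 0.063, against 0.00071 over all genes, and groups did not overlap in 29 of the 40, against 71.7% of all genes. This comparison uses the same knockdown libraries as the comparisons with siControl, so its values are not separate evidence for them. Cardiomyocyte markers moved too, with 5 of 7 measured higher and 0 lower and sums of 159 and 168 CPM in siH1f0 libraries, against 121 and 122 CPM in siJunb libraries. Of 9 fibroblast markers 2 were higher (Col1a2 and Fn1) and 3 lower (Vim, Pdgfra and Pdgfrb), of 5 macrophage and leukocyte markers 1 was higher (Lyz2) and 2 lower (Csf1r and Cd14), and of 5 smooth muscle markers 1 was higher (Acta2). Their part in the protease differences was not tested.

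For the sheddases, Adam19 had 98.9 and 99.4 CPM in siH1f0 libraries, against 192 and 187 CPM in siJunb libraries, and Adam9 had 313 and 305 CPM in siH1f0 libraries, against 418 and 419 CPM in siJunb libraries. The groups did not overlap for either gene. The log2 fold changes were -0.93 ± 0.069 (SE, adjusted p = 5.97e-05) for Adam19 and -0.44 ± 0.059 (SE, adjusted p = 0.00119) for Adam9. Against siControl, the siH1f0 libraries gave 0.15 (95% interval -0.0094 to 0.31, adjusted p = 0.247) for Adam19 and 0.04 (95% interval -0.10 to 0.17, adjusted p = 0.742) for Adam9. Adam22 and Adam23, which lack protease activity and are known as neuronal receptors of LGI proteins, were low throughout. Adam22 had 4.84 and 5.13 CPM in siH1f0 libraries, against 3.37 and 3.37 CPM in siJunb libraries, and its log2 fold change was 0.56 ± 0.17 (SE, adjusted p = 0.0414). Adam23 had 1.05 and 1.12 CPM in siH1f0 libraries, against 0.575 and 0.167 CPM in siJunb libraries, at 1.47 ± 0.47 (SE, adjusted p = 0.0481), and its siJunb libraries differed widely from each other. Adam23 lost its call without siJunb replicate 2 (log2 fold change 0.91, adjusted p = 0.218), siH1f0 replicate 1 (0.146) or siH1f0 replicate 2 (0.172), and stood at 2.68 without siJunb replicate 1. Adam22 lost its call without any of the 4 knockdown libraries (0.126 and 0.177 without siH1f0 replicates 1 and 2, and 0.177 and 0.169 without siJunb replicates 1 and 2) and in limma-voom (0.066).

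For the enzymes and the inhibitor that meet on pro-Mmp2, Timp2 had 1002 and 976 CPM in siH1f0 libraries, against 815 and 814 CPM in siJunb libraries, Mmp2 had 92.2 and 90.8 CPM in siH1f0 libraries, against 80.1 and 78.5 CPM in siJunb libraries and Mmp14 had 451 and 449 CPM in siH1f0 libraries, against 505 and 485 CPM in siJunb libraries. Timp2 and Mmp2 were higher, and Mmp14 lower, in both siH1f0 libraries than in either siJunb library. The log2 fold change was 0.28 ± 0.042 (SE, adjusted p = 0.00189) for Timp2 and 0.21 ± 0.048 (SE, adjusted p = 0.0152) for Mmp2. For Mmp14 (chromosome 14, 54431598 to 54442456) it was -0.14 ± 0.044 (SE, adjusted p = 0.0497), a call that was lost with RLE size factors (adjusted p = 0.0538), with total counts (log2 fold change -0.088, adjusted p = 0.188) in DESeq2 (0.0533) and with a filter at a mean of 5 CPM (0.0593). Mmp11 had 142 and 139 CPM in siH1f0 libraries, against 109 and 112 CPM in siJunb libraries, with a log2 fold change of 0.34 ± 0.046 (SE, adjusted p = 0.00119). Mmp19 had 11.7 and 12.3 CPM in siH1f0 libraries, against 17.5 and 16.0 CPM in siJunb libraries, at -0.47 ± 0.081 (SE, adjusted p = 0.00353). Under all 8 other settings, the calls of Adam19, Adam9, Mmp11, Timp2, Mmp2 and Mmp19 held. The calls of Adam19, Adam9, Mmp11 and Timp2 held without each of the 6 libraries in turn. Without siH1f0 replicates 1 and 2, the adjusted p was 0.138 and 0.106 for Mmp2 and 0.263 and 0.28 for Mmp14. Without siJunb replicates 1 and 2 it was 0.108 and 0.151 for Mmp2 and 0.347 and 0.16 for Mmp14. Mmp19 narrowly lost its call without siH1f0 replicate 1 (0.0504) or siJunb replicate 1 (0.051).

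Among the ADAMTS genes, Adamts12, a relative of Adamts7 that also cuts cartilage oligomeric matrix protein (chromosome 15, 11064773 to 11349232), had 6.38 and 6.87 CPM in siH1f0 libraries, against 3.53 and 4.27 CPM in siJunb libraries, with a log2 fold change of 0.77 ± 0.15 (SE, adjusted p = 0.0059). Adamts7 had 27.6 and 27.0 CPM in siH1f0 libraries, against 34.9 and 34.1 CPM in siJunb libraries, with a log2 fold change of -0.34 ± 0.067 (SE, adjusted p = 0.00688). These relatives differed between the knockdowns in opposite directions, without overlap. Adamts10 was higher in siH1f0, with 41.5 and 40.2 CPM in siH1f0 libraries, against 33.4 and 33.2 CPM in siJunb libraries, and a log2 fold change of 0.30 ± 0.057 (SE, adjusted p = 0.00606). Adamts9 was lower in siH1f0, with 26.1 and 26.7 CPM in siH1f0 libraries, against 33.4 and 34.8 CPM in siJunb libraries, and a log2 fold change of -0.37 ± 0.076 (SE, adjusted p = 0.00809). These 4 calls held under all 8 other settings. In a fit of the 4 libraries compared, 18 of the 40 genes (45%) were called, against 48.6% of all genes. The calls were lost only when a knockdown library was left out. Without siH1f0 replicate 1 the adjusted p was 0.0789 for Adamts10, 0.0567 for Adamts7 and 0.0776 for Adamts9, and without siH1f0 replicate 2 it was 0.052 for Adamts12, 0.0737 for Adamts7 and 0.0595 for Adamts9. Without siJunb replicate 1 it was 0.069, 0.0644, 0.0724 and 0.051 for Adamts12, Adamts10, Adamts7 and Adamts9 in that order, and without siJunb replicate 2 it was 0.0698, 0.0519 and 0.0783 for Adamts10, Adamts7 and Adamts9. The number of protease and inhibitor genes called for siH1f0 against siJunb was 5 without siH1f0 replicate 1 or siJunb replicate 1 and 6 without siH1f0 replicate 2 or siJunb replicate 2, and over all genes 9.47% to 9.71% were called in these 4 fits.

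**Figure D5:**
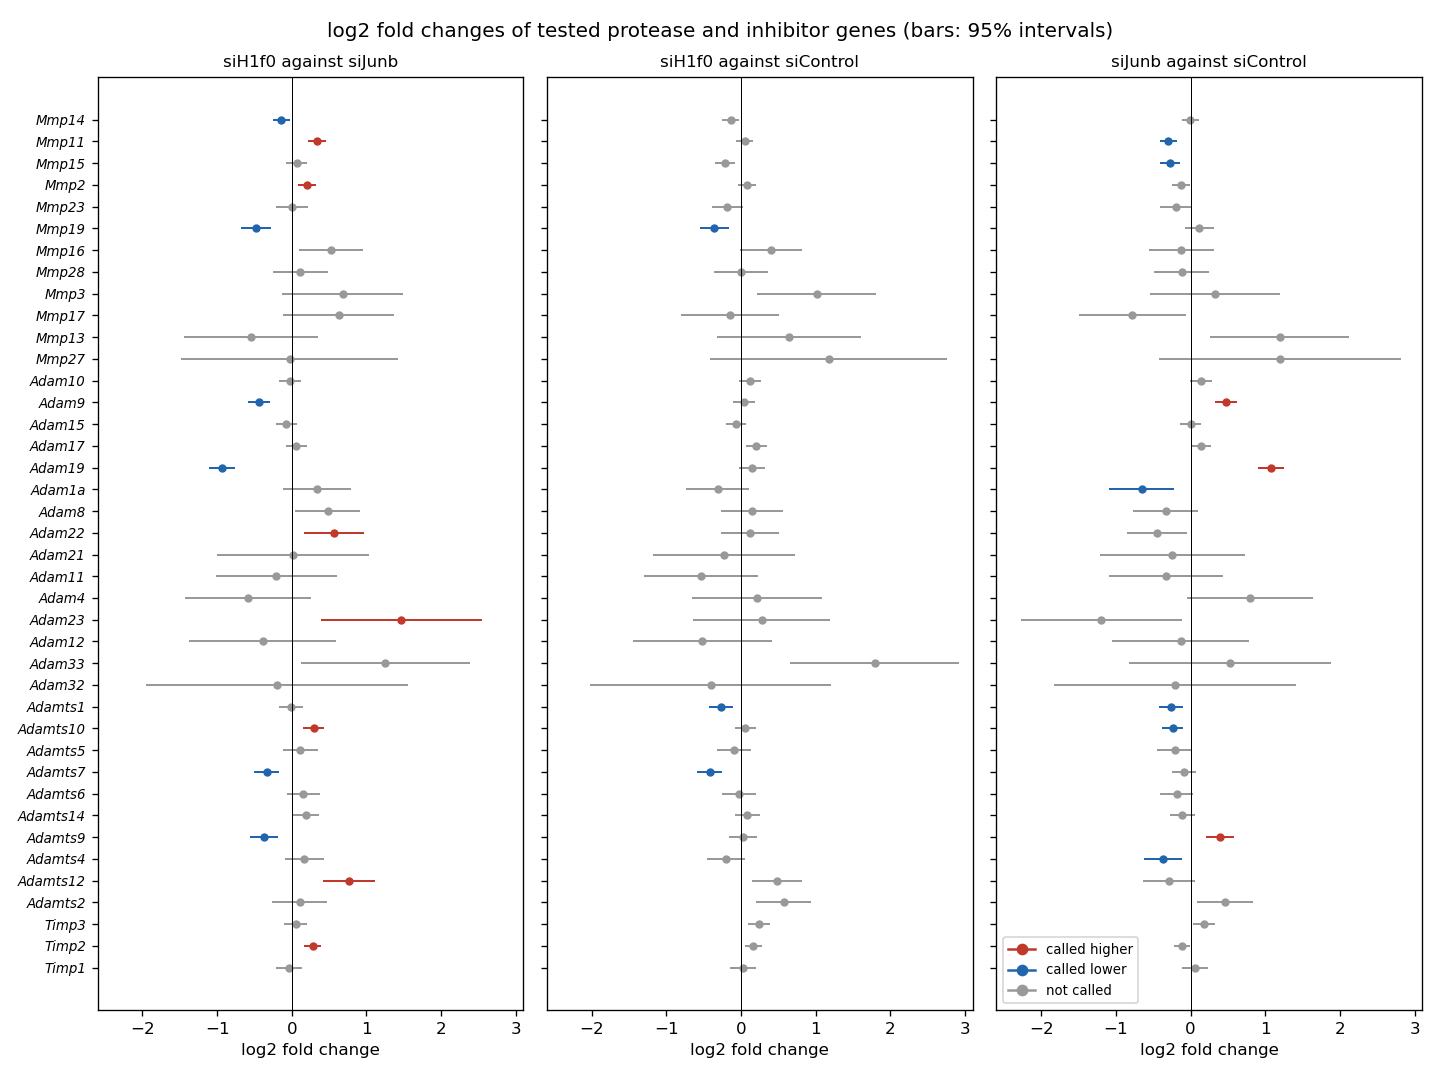
log2 fold change (points) with 95% intervals (bars) of the 40 measured genes, ordered by level within family, for siH1f0 against siJunb, siH1f0 against siControl and siJunb against siControl. Red and blue mark genes called higher and lower at an edgeR adjusted p under 0.05; intervals are narrow for abundant genes and wide for genes with few counts.

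For abundant genes that were not called, the intervals give the difference from siControl under a spread shared by the 3 groups. They can be too narrow where the siControl pair was the widest, as for Adam10. Mmp14, the leading MMP, had 451 and 449 CPM in siH1f0 libraries, 505 and 485 CPM in siJunb libraries and 501 and 491 CPM in siControl libraries. Its log2 fold change was -0.14 (95% interval -0.24 to -0.04, adjusted p = 0.0992) for siH1f0 and -0.0028 (95% interval -0.10 to 0.10, adjusted p = 0.97) for siJunb. Adam10 had 446 and 448 CPM in siH1f0 libraries, 456 and 455 CPM in siJunb libraries and 388 and 438 CPM in siControl libraries. Its log2 fold change against siControl was 0.11 (95% interval -0.02 to 0.25, adjusted p = 0.293) for siH1f0 and 0.14 (95% interval 0.0061 to 0.28, adjusted p = 0.141) for siJunb, and siControl replicate 1 was the lowest library. Adam15, of whose exonic bases 20.6% overlap 4731419I09Rik on the opposite strand, had 159 and 161 CPM in siH1f0 libraries, 173 and 163 CPM in siJunb libraries and 174 and 161 CPM in siControl libraries, with -0.069 (95% interval -0.19 to 0.057, adjusted p = 0.505) for siH1f0 and 0.0047 (95% interval -0.12 to 0.13, adjusted p = 0.962) for siJunb. Timp1, the soluble inhibitor that many stimuli induce, had 60.0 and 61.7 CPM in siH1f0 libraries, 61.4 and 62.9 CPM in siJunb libraries and 63.9 and 55.5 CPM in siControl libraries. The siControl libraries held both the highest and the lowest Timp1 value, and the log2 fold change was 0.028 (95% interval -0.13 to 0.19, adjusted p = 0.857) for siH1f0 and 0.058 (95% interval -0.10 to 0.22, adjusted p = 0.615) for siJunb. The remaining TIMPs in siJunb gave 0.18 (95% interval 0.049 to 0.32, adjusted p = 0.0684) for Timp3 and -0.11 (95% interval -0.21 to -0.019, adjusted p = 0.0979) for Timp2. Adam17 gave 0.14 (95% interval 0.019 to 0.27, adjusted p = 0.108) and Mmp2 -0.12 (95% interval -0.23 to -0.014, adjusted p = 0.115) for siJunb against siControl. A p that misses the threshold does not show that the groups were alike.

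Genes with few counts had wide intervals. For siJunb against siControl, 16 uncalled genes averaged at least 5 CPM over the libraries, and their log2 fold changes ran from -0.29 (Adamts12) to 0.18 (Timp3). The other 15 uncalled genes, below 5 CPM, had SEs of up to 0.71. For siH1f0 against siControl the 21 uncalled genes of at least 5 CPM ran from -0.21 (Mmp15) to 0.48 (Adamts12). Mmp13, the one collagenase past the count filter, had 0.332 and 0.374 CPM in siH1f0 libraries, 0.479 and 0.565 CPM in siJunb libraries and 0.287 and 0.152 CPM in siControl libraries. Its log2 fold change was 1.19 (95% interval 0.27 to 2.11, adjusted p = 0.0781) for siJunb and 0.64 (95% interval -0.31 to 1.59, adjusted p = 0.406) for siH1f0. Mmp3 had 0.565 and 0.524 CPM in siH1f0 libraries, 0.288 and 0.398 CPM in siJunb libraries and 0.253 and 0.288 CPM in siControl libraries, at 0.33 (95% interval -0.53 to 1.19, adjusted p = 0.596) for siJunb and 1.01 (95% interval 0.23 to 1.79, adjusted p = 0.125) for siH1f0. Both siJunb libraries held more Mmp13, and both siH1f0 libraries more Mmp3, than either siControl library, but neither difference was called. Adam33 had 0.366 and 0.374 CPM in siH1f0 libraries, 0.16 and 0.147 CPM in siJunb libraries and 0.069 and 0.152 CPM in siControl libraries and the widest uncalled value, 1.79 (95% interval 0.67 to 2.91, adjusted p = 0.0689) for siH1f0.

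Partners and targets of these enzymes were described from lists chosen with earlier results of these data known. Among 13 measured partners and regulators (such as furin-type activators, iRhoms and tetraspanins), 0 were called for siJunb against siControl by edgeR, where 16.5% of all genes were. For siH1f0 against siControl 2 rose: Reck, a membrane-anchored MMP inhibitor, had 28.3 and 28.4 CPM in siH1f0 libraries, against 21.6 and 24.2 CPM in siControl libraries (log2 fold change 0.31, SE 0.072, adjusted p = 0.0397), and Pcsk7, a proprotein convertase, had 52.7 and 53.0 CPM in siH1f0 libraries, against 44.4 and 46.0 CPM in siControl libraries (log2 fold change 0.23, SE 0.052, adjusted p = 0.0398). Of 15 shed ligands and receptors, 2 rose and 2 fell in siJunb and 1 rose and 4 fell in siH1f0, beside 16.5% and 6.55% of all genes called in either direction. Hbegf, an EGF-family ligand released by ADAMs, fell in both, to 42.5 and 39.5 CPM in siH1f0 libraries and 36.5 and 37.3 CPM in siJunb libraries, against 59.5 and 56.0 CPM in siControl libraries. The falls share these siControl libraries and are not separate evidence. Tgfa, a ligand released by Adam17, fell in siH1f0 (14.6 and 14.7 CPM, against 28.6 and 32.4 CPM in siControl), with a log2 fold change of -1.05 ± 0.088 (SE, adjusted p = 0.000383). Notch1, a receptor that Adam10 cuts, rose in siJunb and fell in siH1f0, with 8.79 and 8.7 CPM in siH1f0 libraries, 14.7 and 15.2 CPM in siJunb libraries and 10.8 and 12.8 CPM in siControl libraries. Of 4 measured proteoglycans that ADAMTS enzymes and MMPs cut, 2 rose in siJunb, where 16.5% of all genes were called. Dcn, decorin, had 15.1 and 15.5 CPM in siJunb libraries, against 5.21 and 4.27 CPM in siControl libraries (log2 fold change 1.68, SE 0.11, adjusted p = 9.28e-05), and Bgn, biglycan, had 456 and 457 CPM in siJunb libraries, against 352 and 355 CPM in siControl libraries (log2 fold change 0.37, SE 0.047, adjusted p = 0.00186). Against the same siControl libraries, Dcn also rose in siH1f0 (log2 fold change 0.65, SE 0.11, adjusted p = 0.0114). Of 9 measured AP-1 subunits, 3 fell in siJunb, 1 of them the siRNA target Junb, and 1 rose. In siH1f0, 1 fell, beside 16.5% and 6.55% of all genes called in siJunb and siH1f0. Jund and Atf3 fell in siJunb beside Junb (Jund 151 and 141 CPM and Atf3 59.2 and 58.4 CPM in siJunb libraries, against 216 and 185 CPM and 70.3 and 65.5 CPM in siControl libraries), and Fosl2 rose in siJunb and fell in siH1f0 (155 and 155 CPM in siH1f0 libraries, 255 and 242 CPM in siJunb libraries and 204 and 220.2 CPM in siControl libraries).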

How the data were processed

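RNA of 6 libraries was sequenced from a poly(A) kit, per the labels' protocols. The deposited table holds raw read counts per gene with gene lengths. HISAT2, featureCounts and Subread are named with build mm10, per the submitters' processing notes, without versions. For the strand setting, the annotation release and multi-mapped reads, a statement is not given in the sources used here. The symbol rule, the gene lists and the genes described were chosen with earlier results of these data known.

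Counts were tested in 1 edgeR 4.0.16 quasi-likelihood fit of the 6 libraries (R 4.3.3; group as the sole term, TMM scaling, filterByExpr with a minimum count of 10, 3 residual degrees of freedom), with Benjamini-Hochberg adjustment over 13427 genes. A gene was called at an adjusted p under 0.05, and "rose" and "fell" refer to calls. SEs and intervals come from that fit, in which the 3 groups share the spread of each gene. CPM uses TMM-scaled library sizes. TPM uses the deposited lengths. The code was tested on simulated data. Alternatives were RLE factors, total counts, other filters, limma-voom (limma 3.58.1), DESeq2 1.42.0, a replicate block, fits of the 4 libraries compared and each library left out. Genes named were those called in any comparison, the 12 with the highest TPM, the TIMPs, both siRNA targets and up to 3 called genes per related list; Adam33, Mmp3, Mmp13, Mmp9 and genes at 0 were named after their values were seen. Coordinates are RefSeq GRCm38.p6, and exon overlaps come from GENCODE M21. One gene of a related list is not reported here.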

Additional observations from a re-analysis of the deposited data

How the results depend on the processing

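Of the values of single genes under the alternatives, 837 kept their direction and side of the threshold, 56 gained a call, 88 lost one and 18 changed sign without being called in either setting. With total counts these were Adam15 at -0.031 for siJunb against siControl, and Adamts1 at 0.035, Adam10 at 0.024 and Timp1 at 0.020 for siH1f0 against siJunb; Adam15 was also at -0.0035 with no count filter and -0.012 with a mean of at least 5 CPM. With 1 library left out, the log2 fold change for siJunb against siControl ranged over -0.057 to 0.063 for Adam15, -0.048 to 0.16 for Timp1 and -0.033 to 0.028 for Mmp14. For siH1f0 against siControl it ranged over -0.070 to 0.12 for Adamts9, -0.043 to 0.12 for Adam9, -0.088 to 0.70 for Adam23, -0.12 to 0.38 for Adam22 and -0.075 to 0.13 for Timp1, and for siH1f0 against siJunb over -0.036 to 0.0051 for Adamts1. The number of protease and inhibitor genes called for siJunb against siControl was 14 of 56 tested with no count filter and 5 of 39 in a fit of the 4 libraries compared. Of all genes tested, 18.4% and 8.26% were called in these settings. For siH1f0 against siControl it was 6 with total counts, 10 of 56 tested with no count filter, 5 with limma-voom and 7 with DESeq2. It was 1 both with a replicate block and in a fit of the 4 libraries. The shares of all genes called were 6.99%, 10.8%, 6.41%, 8.94%, 4.1% and 2.44% in these settings, in that order. Over all genes, siJunb against siControl gave 1094 calls in a fit of the 4 libraries, siH1f0 against siControl gave 1921 with no count filter, 550 with a replicate block and 325 in a fit of the 4 libraries, and siH1f0 against siJunb gave 6416 in a fit of the 4 libraries. With 1 library left out, the protease and inhibitor calls ranged from 2 to 21 for siJunb against siControl, 0 to 18 for siH1f0 against siControl and 5 to 19 for siH1f0 against siJunb. The calls over all genes ranged from 352 to 5521, 116 to 4932 and 1304 to 6435 in the same order, and the lone library of a group was then assumed to vary like the others. The cause was not tested.

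Replicate numbers did not pair the libraries (correlations of same-numbered deviations 0.048, -0.041 and 0.063). With the replicate block, 7 protease and inhibitor genes were called for siJunb against siControl and 11 for siH1f0 against siJunb, beside 12.5% and 21.7% of all genes. The block ended the calls of Adamts4 and Adam1a (adjusted p = 0.0542 and 0.068) for siJunb against siControl, Mmp19 and Adamts1 (0.063 and 0.0665) for siH1f0 against siControl, and Adam23 and Mmp14 (0.0699 and 0.0887) for siH1f0 against siJunb. On RPKM with TMM library sizes in place of TPM, the log2 ratio of MMP totals was -0.081 for siH1f0 against siControl, -0.11 for siJunb against siControl and 0.033 for siH1f0 against siJunb. For siH1f0 against siJunb, that of ADAM totals was -0.20, of ADAMTS totals 0.034 and of TIMP totals 0.14. In RPKM the ADAMTS totals of the siH1f0 libraries (54.0 and 52.9) lay below those of the siControl libraries (54.6 and 61.1), whereas in TPM these pairs overlapped. Genes below 5 CPM bound little at this depth.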

Other observations

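Other extracellular and lysosomal proteases moved beside the metalloproteinases. In the plasminogen activator system, Plat, tissue-type plasminogen activator, averaged 24.8 ± 0.286 CPM in siJunb libraries and 35.0 ± 0.27 CPM in siControl libraries (SD, n = 2 each), and fell in siJunb (log2 fold change -0.50, SE 0.056, adjusted p = 0.00116). Serpine2, protease nexin-1, had 38.7 and 35.4 CPM in siH1f0 libraries, 44.8 and 45.5 CPM in siJunb libraries and 57.3 and 51.3 CPM in siControl libraries, and fell in both knockdowns (log2 fold change -0.55 for siH1f0 and -0.27 for siJunb). Both falls are read against the same siControl libraries, so they are not separate evidence.

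Of 9 measured cathepsins, 4 rose and 0 fell for siJunb against siControl, 1 rose and 3 fell for siH1f0 against siControl, and 0 rose and 5 fell for siH1f0 against siJunb, beside 16.5%, 6.55% and 25.9% of all genes called in these comparisons. Ctsa, the protective protein of lysosomal sialidase, had 393 and 390.5 CPM in siH1f0 libraries, 657 and 655 CPM in siJunb libraries and 534 and 507 CPM in siControl libraries. Ctsd, the lysosomal aspartic protease, had 782 and 797 CPM in siH1f0 libraries, 1191 and 1161 CPM in siJunb libraries and 962 and 878 CPM in siControl libraries. Both were highest in siJunb and lowest in siH1f0, with no overlap between groups, and the log2 fold changes against siControl were -0.41 ± 0.045 (SE, adjusted p = 0.00148) and -0.22 ± 0.053 (SE, adjusted p = 0.043) for siH1f0 and 0.33 ± 0.045 (SE, adjusted p = 0.0024) and 0.35 ± 0.053 (SE, adjusted p = 0.00366) for siJunb, given for Ctsa before Ctsd. Among 5 measured tolloid and meprin genes, Bmp1, the procollagen C-proteinase, had 239 and 237 CPM in siH1f0 libraries, 212 and 207 CPM in siJunb libraries and 250.4 and 242 CPM in siControl libraries and fell in siJunb (log2 fold change -0.24, SE 0.045, adjusted p = 0.0105), while Tll1 rose (log2 fold change 1.01, SE 0.24, adjusted p = 0.0244). Of 5 measured ADAMTS-like genes 0 were called in any comparison by edgeR.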
